A study of Drosophila melanogaster with 4 samples.

Results

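The genes described here carry proteins into and through the secretory pathway, and their transcript levels were compared between Dop1R2 RNAi pupae and control pupae. They are the p24 cargo receptors, the subunits of the COPI and COPII vesicle coats, the translocon of the endoplasmic reticulum (ER), the sensors of the unfolded protein response, and a few folding and retrieval factors. They were chosen by name, 36 genes in all, and a gene was followed where a probe set of the array carries its name alone. This left 25 genes, each represented by its brightest probe set, of 10843 genes that have such a probe set among the 13966 of the array. The other 11 (p24-1, beta'COP, zetaCOP, Sec23, Sar1, SsRbeta, SrpRbeta, Xbp1, Calr, Arf79F and garz) were not analysed here, although 1 probe set carries the name of zetaCOP together with that of CG5946.

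RNA came from pools of 10 to 20 whole early (pale) pupae raised at 29 °C, and each of the 4 Affymetrix DrosGenome1 arrays measured 1 pool, 2 arrays for each group. The Dop1R2 RNAi pupae carried 1 copy of UAS-dsDop1R2, a hairpin against the dopamine receptor Dop1R2, and 1 copy of Act5C-Gal4, which drives it in all tissues from the actin 5C promoter. The labels give the controls as w1118;Act5C-Gal4/+, the driver without the hairpin, and the methods of the study describe the same kind of control. The legends of the study instead describe siblings with the hairpin and the balancer TM6B but no driver. Which of the hairpin lines was used for the arrays is not given in the sources used here. The arrays of a group are labelled as biological replicates. Since the whole animal was sampled, fewer cells of a type and less RNA per cell cannot be told apart for any gene below.

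A protein destined for secretion is threaded by its signal peptide through the Sec61 channel into the ER, where it is cleaved, glycosylated and folded. COPII coats then bud vesicles toward the Golgi, COPI coats bring escaped ER residents and empty receptors back, and p24 proteins ride in both kinds of vesicle and help to select cargo. When folding falls behind, the unfolded protein response adjusts synthesis and folding capacity. In Drosophila the larval and prepupal salivary gland, the fat body and the epidermis that lays down cuticle all export large amounts of protein around the onset of metamorphosis.

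Values are MAS5 signals, linear intensities that were scaled to the same trimmed mean on each array. A probe set was tested if it reached the 40th percentile of the array, a signal between 29.4 and 31.0, on at least 2 of 4 arrays. All 25 genes did so, within 8749 tested probe sets. Sec16 did so through its control arrays only, so its difference is in part a result of that filter. Log2 fold changes are Dop1R2 RNAi over control, with standard errors and adjusted p-values from limma over all tested probe sets. The number of arrays limits the precision.

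Most of the 25 genes had lower signals in Dop1R2 RNAi pupae, but by amounts that passed the test for eca alone. Of the 25 genes, 1 was called lower and 0 were called higher at adjusted p under 0.05, against 0.103% and 1.38% of all tested probe sets. At unadjusted p under 0.05, 4 were lower (eca, Sec61alpha, Sec61beta and Sec61gamma), against 5.51% of all tested probe sets, and 1 was higher (PEK), against 7.53%. Both Dop1R2 RNAi arrays lay below both control arrays for 17 genes, or 68.0%, where 24% of all tested probe sets did so. The reverse order was seen for 2 genes, Sec22 and PEK, where 21.1% of all tested probe sets had it. In 6 genes the groups overlapped. Log2 fold changes were below 0 for 22 of 25 genes, or 88.0%, beside 53.9% of all tested probe sets. The median was -0.24 over the 25 genes (-0.22 without Sec16) and -0.04 over all tested probe sets.

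**Figure D1:**
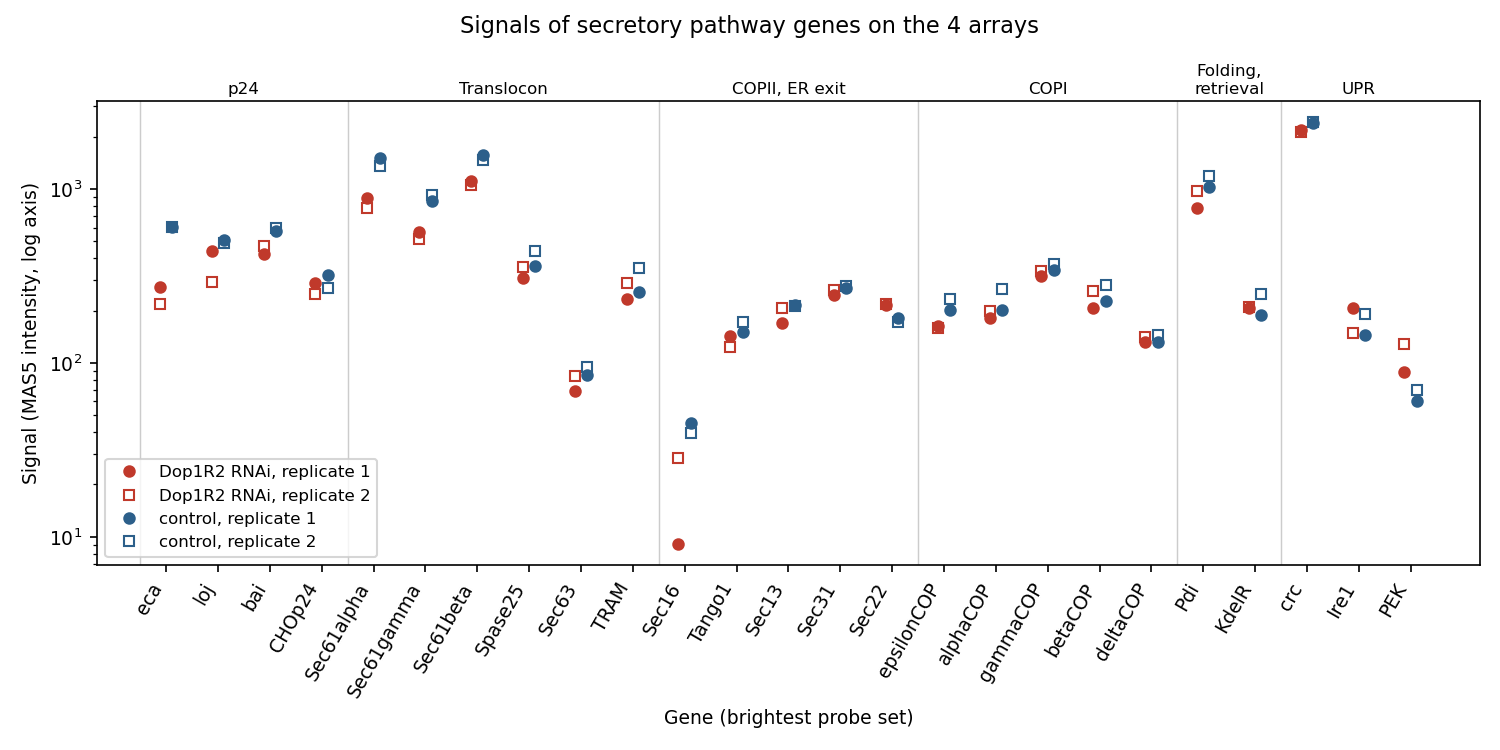
Signal of each of the 25 genes on each array (vertical log axis, MAS5 intensity), with Dop1R2 RNAi arrays in red and control arrays in blue, replicate 1 filled and replicate 2 open; UPR stands for the unfolded protein response. The red points of eca and of the Sec61 subunits sit clear of the blue ones, while those of deltaCOP, KdelR and Ire1 mix with them.

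In many of the 25 genes the difference between groups did not exceed the larger gap between replicates. Over the 25 genes the median log2 difference between the control arrays was -0.12 (replicate 1 minus replicate 2) and between the Dop1R2 RNAi arrays -0.09. The median was -0.16 when Dop1R2 RNAi replicate 1 was set against control replicate 1 and -0.39 against control replicate 2. For Dop1R2 RNAi replicate 2 it was -0.06 and -0.30. It was therefore negative in all 4 pairs of arrays, and closer to 0 against control replicate 1. Over all tested probe sets the medians were 0.01 and -0.06 for Dop1R2 RNAi replicate 1 against control replicates 1 and 2. For Dop1R2 RNAi replicate 2 they were -0.01 and -0.05, so these too were lower against control replicate 2. In 13 of the 25 genes the difference between groups was larger than the gap between replicates in either group. The share of all tested probe sets with such a difference was not computed, so this count has no background.

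The gene eca (éclair), which encodes a p24 protein, fell 2.50-fold in Dop1R2 RNAi pupae. Its signals were 272 and 217 in Dop1R2 RNAi pupae, against 608 and 607 in controls. The control arrays agreed within 0.001 on the log2 scale, and both Dop1R2 RNAi arrays lay far below them. The log2 fold change was -1.32 (standard error 0.22, adjusted p = 0.0434, 95% interval -1.85 to -0.79). A second, much dimmer probe set of eca, which did not reach the filter, read 20.1 and 20.4 in Dop1R2 RNAi pupae against 33.8 and 29.2 in controls, a log2 difference of -0.63. The fold change of eca stayed between -1.48 and -1.16 whichever array was left out, but the call was lost when control replicate 1 (adjusted p = 0.348) or control replicate 2 (0.189) was dropped, when no filter was set (0.0563) and when limma was run with no trend (0.09997). When 1 array is left out, the lone array of its group is assumed to vary as the other group does. Without a Dop1R2 RNAi array, the spread of eca itself comes from the controls alone, which agreed within 0.001.

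Of the other p24 genes, loj (logjam) and bai (baiser) lay lower without passing, and CHOp24 did not separate the groups. For loj the signals were 439 and 290.3 in Dop1R2 RNAi pupae against 508 and 491 in controls (log2 fold change -0.48, 95% interval -1.10 to 0.13, adjusted p = 0.475). Most of that came from Dop1R2 RNAi replicate 2, the lowest of the 4 arrays. For bai they were 422 and 471 against 576 and 598 (log2 fold change -0.40, 95% interval -0.88 to 0.09, adjusted p = 0.459), with no overlap between groups. CHOp24 read 290.0 and 248 against 321 and 270.4, and its log2 fold change was -0.14 (95% interval -0.68 to 0.41, adjusted p = 0.845).

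The 3 subunits of the Sec61 channel, through which nascent chains enter the ER, all had lower signals in Dop1R2 RNAi pupae, though none of them passed. Sec61alpha, which forms the pore, had signals of 894 and 779.8 in Dop1R2 RNAi pupae against 1512 and 1365 in controls. Its log2 fold change was -0.78 (standard error 0.19, 95% interval -1.24 to -0.32, adjusted p = 0.165), and it passed without Dop1R2 RNAi replicate 1 (log2 fold change -0.88, adjusted p = 0.0132), where 295 probe sets were called lower and 357 higher in all. Sec61gamma read 568 and 518 against 849 and 919.8 (log2 fold change -0.70, standard error 0.20, adjusted p = 0.223). Sec61beta read 1119 and 1057 against 1578 and 1471 (log2 fold change -0.49, standard error 0.18, adjusted p = 0.338). In each of these genes both Dop1R2 RNAi arrays were below both controls, so every value with 1 array left out had to be negative. Relative to the mean of the controls, the median of the 3 subunits on the log2 scale was -0.64 and -0.77 in Dop1R2 RNAi pupae, against 0.05 and -0.05 in controls.

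The partners of the channel had smaller log2 differences. Spase25, a subunit of the signal peptidase that cuts signal peptides off, had a log2 fold change of -0.27 (95% interval -0.81 to 0.27). That of Sec63, a membrane J-domain protein that recruits the chaperone BiP to the channel, was -0.24 (-0.81 to 0.33). TRAM, a membrane protein next to the channel, read 232 and 289 in Dop1R2 RNAi pupae against 256 and 349 in controls, so that the groups overlapped, and its value of -0.20 (adjusted p = 0.773) turned to 0.02 without control replicate 2. Over the 6 tested genes of the translocon and signal peptide group, all had values below 0, from -0.78 to -0.20, with a median of -0.38.

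**Figure D2:**
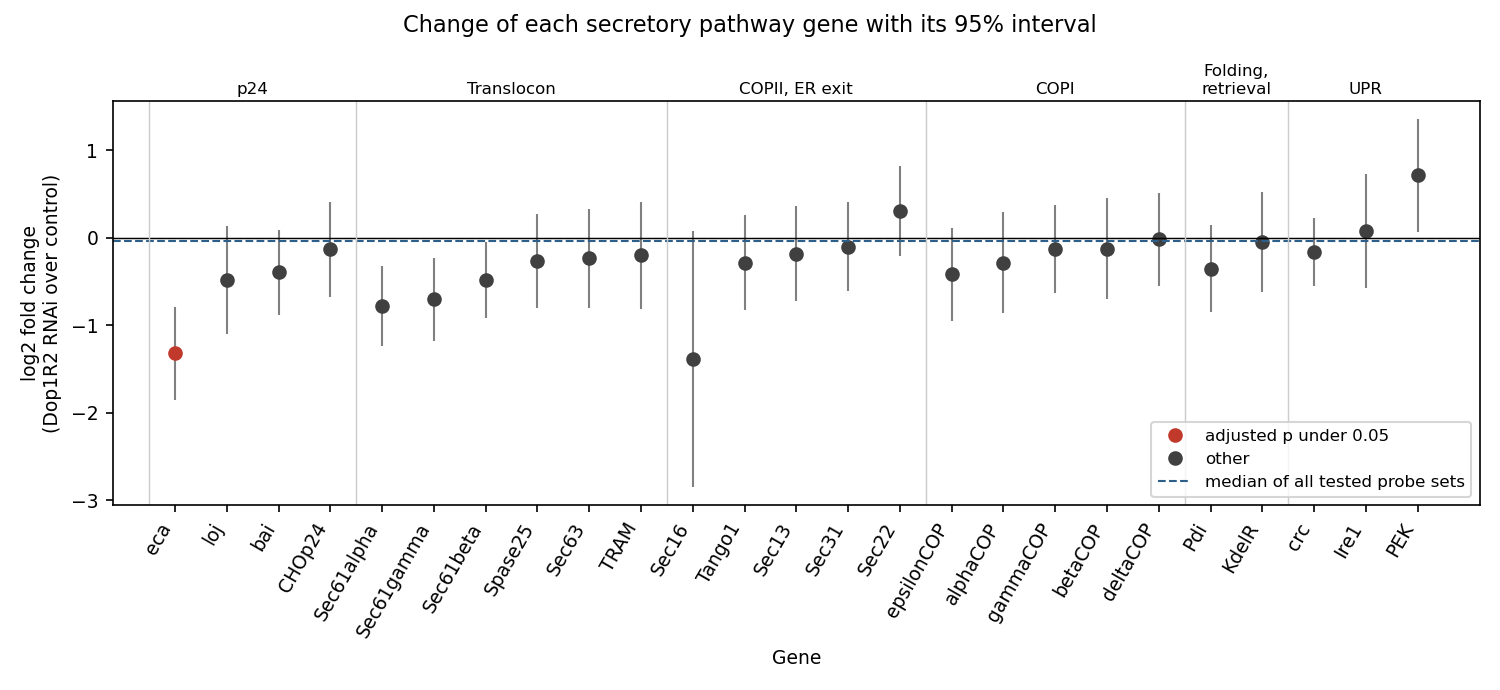
Log2 fold change of each of the 25 genes (vertical axis, Dop1R2 RNAi over control) with its 95% interval from limma, ordered by role; red marks adjusted p under 0.05 and the dashed line is the median of all tested probe sets, at -0.04. The intervals of eca, the Sec61 subunits and PEK leave out 0, and that of Sec16 is the widest.

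Genes of the COPII coat and the ER exit site showed no call. Sec16, the scaffold of the exit site, had the lowest value of the 25 genes, a log2 fold change of -1.39, but with the widest interval (-2.85 to 0.07, adjusted p = 0.394). Its signals were 9.07 and 28.4 in Dop1R2 RNAi pupae against 44.8 and 39.4 in controls, so that the Dop1R2 RNAi arrays were dim and far from each other. A dimmer probe set of the same gene, under the filter on all 4 arrays, read 16.9 and 18.0 against 5.52 and 29.3 and gave the opposite sign.

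The outer coat subunits Sec13 and Sec31 had log2 fold changes of -0.18 and -0.11, with 95% intervals of -0.72 to 0.36 and -0.62 to 0.40. For Sec31 the signals were 245 and 263 in Dop1R2 RNAi pupae against 269 and 278 in controls, close to each other but without overlap. Tango1, which loads bulky cargo such as collagen at exit sites, was at -0.29 (adjusted p = 0.627). The vesicle SNARE Sec22 was 1 of the few genes on the other side, with 216 and 219 in Dop1R2 RNAi pupae against 180.4 and 171 in controls. Its log2 fold change was 0.31 (95% interval -0.21 to 0.82, adjusted p = 0.578).

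Subunits of the COPI coat lay between a log2 fold change of -0.42 and -0.02, with a median of -0.13, and 0 of 5 was called (0 also at unadjusted p under 0.05). The value farthest from 0 was that of epsilonCOP, with signals of 163 and 159 in Dop1R2 RNAi pupae against 200.5 and 232 in controls (95% interval -0.95 to 0.11, adjusted p = 0.470). The gene lies 2 protein-coding genes away from Sec61alpha on chromosome arm 2L in the Release 6 annotation. The closest to 0 was deltaCOP, with 132 and 141 against 132 and 146 (95% interval -0.55 to 0.51, adjusted p = 0.983), and its sign turned without Dop1R2 RNAi replicate 1 (0.02) or control replicate 2 (0.05). Between them were alphaCOP (-0.29), gammaCOP (-0.13) and betaCOP (-0.13). The probe set named for zetaCOP and CG5946 together read 414 and 368 against 369.7 and 489.7, and its groups overlapped.

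Among folding and retrieval factors, Pdi, a disulfide isomerase of the ER lumen, read 778 and 969 in Dop1R2 RNAi pupae against 1034 and 1191 in controls (log2 fold change -0.35, 95% interval -0.85 to 0.15, adjusted p = 0.514). The receptor KdelR, which returns ER residents from the Golgi, read 207 and 211 against 188 and 248. The Dop1R2 RNAi arrays fell between the controls, and the log2 fold change was -0.05 (95% interval -0.62 to 0.52), or 0.15 without control replicate 2.

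The genes of the unfolded protein response had no shared direction. PEK, the ER kinase that slows translation by phosphorylating eIF2alpha, read 88.2 and 128 in Dop1R2 RNAi pupae against 60.1 and 70.1 in controls. Both Dop1R2 RNAi arrays were above both controls, and replicate 2 was the higher. The log2 fold change was 0.71 (standard error 0.27, 95% interval 0.07 to 1.35, adjusted p = 0.346), between 0.44 and 0.98 with 1 array left out, and never passed. Ire1, the kinase and nuclease that splices Xbp1, read 208 and 148 against 145 and 191, and its log2 fold change of 0.08 (95% interval -0.57 to 0.73) changed sign with single arrays. The gene crc, the fly ATF4, was steady between replicates, with 2182 and 2130 against 2402 and 2421, and its log2 fold change was -0.16 (95% interval -0.55 to 0.23, adjusted p = 0.701).

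**Figure D3:**
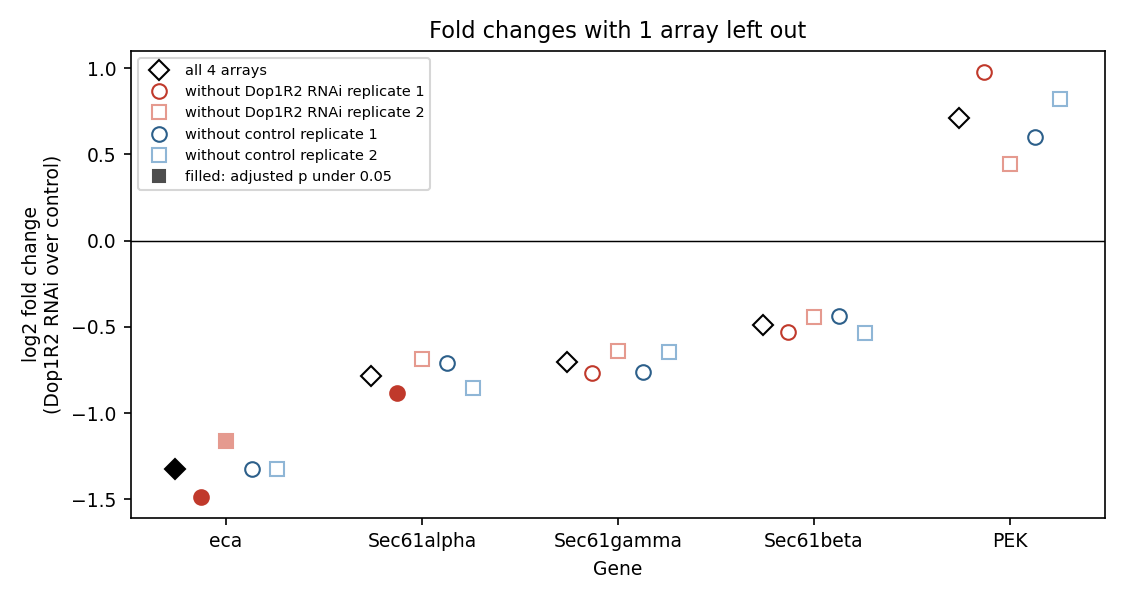
Log2 fold change (vertical axis, Dop1R2 RNAi over control) of the 5 genes at unadjusted p under 0.05, with all 4 arrays and with each array left out in turn; filled symbols have adjusted p under 0.05. The fall of eca passes with all arrays and when a Dop1R2 RNAi array is left out, and not when a control array is left out.

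A wider list of secretory genes, taken by role and not by change, holds 59 further genes with a probe set of their own, 56 of them tested. In limma 0 of 56 was called in either direction, and at unadjusted p under 0.05 there were 5 lower and 0 higher, or 8.93% and 0%, against 5.51% and 7.53% of all tested probe sets. The share of lower genes is near that background. The 5 are Surf4, a cargo receptor (log2 fold change -0.69, adjusted p = 0.277), l(1)G0320 (-0.57, 0.354), OstDelta of the oligosaccharyltransferase (-0.53, 0.330), Tapdelta of the translocon-associated complex (-0.52, 0.346) and the disulfide isomerase ERp60 (-0.48, 0.347). Surf4 read 182 and 162 in Dop1R2 RNAi pupae against 261 and 296 in controls, and OstDelta 753 and 829.96 against 1084 and 1196. In all 5 both Dop1R2 RNAi arrays lay below both controls, an order that their selection at unadjusted p under 0.05 makes likely. Over the 56 genes that order was seen in 23, or 41.1%, beside 24% of all tested probe sets, and the median log2 fold change was -0.16.

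By role, the lowest medians of the wider list were those of genes that work at the channel and of the 3 other cargo receptors (-0.37). The 5 genes of the translocon-associated complex, Sec62 function (Trp1) and signal peptidase had a median of -0.37, and in all of them the Dop1R2 RNAi arrays were below the controls. The 5 tested glycosylation genes had a median of -0.46, with Stt3B at -0.47 (adjusted p = 0.389), Dad1 at -0.46, Ostgamma at -0.44 and Stt3A apart at 0.18. The 7 genes of the signal recognition particle and its receptor, which bring ribosomes to the ER, had a median of -0.04.

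The genes listed under ER folding were mixed, from -0.57 for l(1)G0320 to 0.29 for Ero1L, and the chaperones Hsc70-3, Gp93 and Cnx99A lay between. Hsc70-3, the fly BiP, read 482 and 685 in Dop1R2 RNAi pupae against 497 and 648 in controls, a log2 fold change of 0.02 (95% interval -0.60 to 0.64). Its probe set bears the suffix that the array design gives to sequence families, so signal from related transcripts is possible. Gp93, an Hsp90 of the ER lumen, was at 0.09. Cnx99A, a calnexin, was at 0.19, with both Dop1R2 RNAi arrays above both controls. The median was -0.05 over the 9 genes listed under ER folding, l(1)G0320 among them. Over 10 genes of ER-associated degradation and stress it was -0.14. The highest of these 10 was PPP1R15, a subunit of the phosphatase that counters PEK (log2 fold change 0.43, adjusted p = 0.507). Golgi tethers, Rabs and SNAREs ranged from -0.61 for p115 (adjusted p = 0.558) to 0.55 for Sec20 (adjusted p = 0.449), with Bet3 at -0.49 (adjusted p = 0.444) and a median of -0.07 over 14 genes. Whether these groups differ from each other was not tested.

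**Figure D4:**
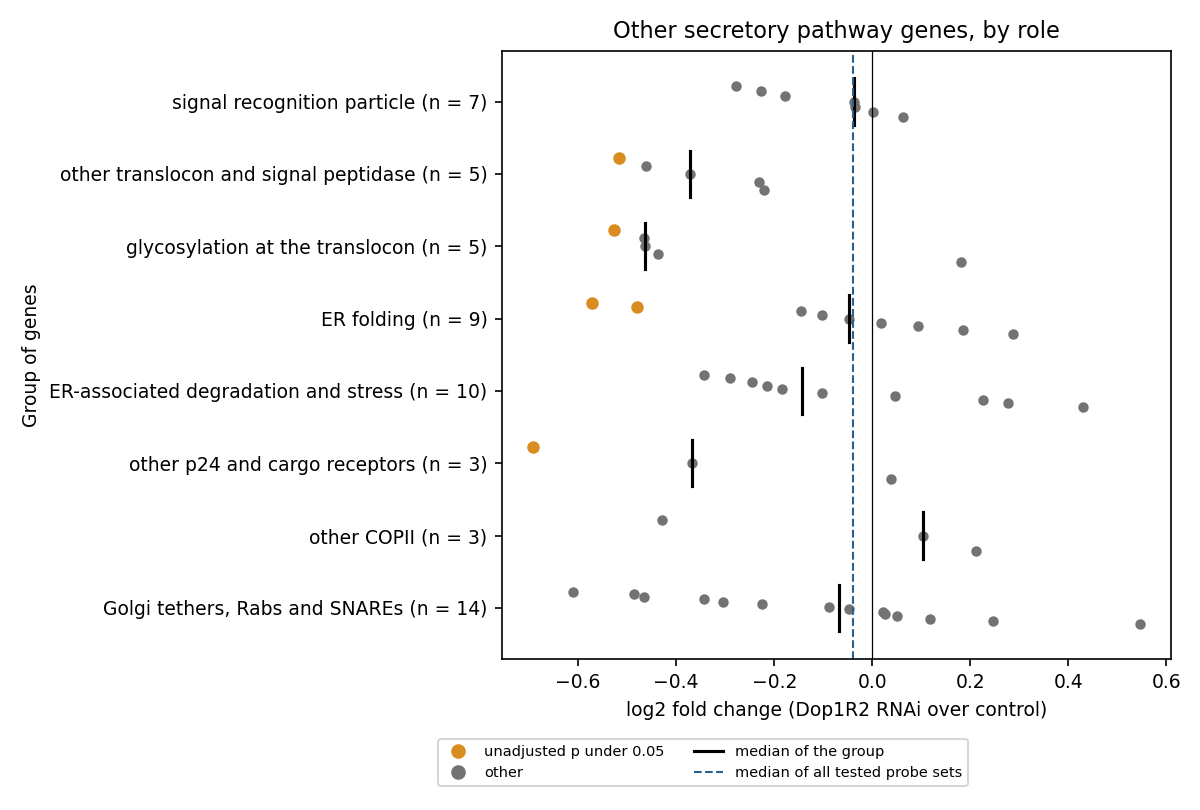
Log2 fold change (horizontal axis, Dop1R2 RNAi over control) of the 56 other secretory genes tested, 1 row of points for each role, with the median of each role as a black bar; orange marks unadjusted p under 0.05. The bars of the translocon and glycosylation rows lie at -0.37 and -0.46, those of the signal recognition particle and ER folding rows near 0.

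Markers of stage and tissue were read on the same arrays. All 5 pupal stage genes were higher in Dop1R2 RNAi pupae at unadjusted p under 0.05, against 7.53% of all tested probe sets. The study had already reported Edg91 and Pcp as raised in these data, so the list is not independent of them. Edg78E (log2 fold change 1.98, adjusted p = 0.067), Edg84A (1.56, 0.241) and ftz-f1 (1.03, 0.293) were not called. The gene ftz-f1 reached the filter through its Dop1R2 RNAi arrays only. Called higher were 2 genes, Edg91 (log2 fold change 2.07, adjusted p = 0.0226) and Pcp (1.87, 0.0407). Both calls were lost without control replicate 1 (adjusted p = 0.195 for Edg91 and 0.291 for Pcp) or control replicate 2 (0.141 and 0.186), without the filter (0.0532 and 0.074) and with no trend (0.0517 and 0.0888). The summed signal of the 5 genes was 738 to 1354 in Dop1R2 RNAi pupae and 256 to 330.4 in controls. The 4 haemocyte markers had a summed signal of 299 to 300.2 in Dop1R2 RNAi pupae and 454 to 519.6 in controls. The lower sum came from Pxn alone (log2 fold change -1.05, adjusted p = 0.0926). In all, 0 of 3 tested haemocyte genes passed with all arrays (Pxn did without Dop1R2 RNAi replicate 1, adjusted p = 0.02), and Hml was under the filter on all 4 arrays. NimC1 lay the other way, with 37.6 and 36.9 in Dop1R2 RNAi pupae against 25.2 and 34.2 in controls (log2 fold change 0.34, adjusted p = 0.718), and srp was at -0.01. Fat body markers summed to 17752 to 18571 against 18128 to 18590.4. Of the 6 glue genes of the larval salivary gland, 5 were under the filter on all 4 arrays. The part of stage, haemocytes and other cell types in the values of eca and the translocon genes was not tested. The transcript of Dop1R2 itself was not analysed here, so the knockdown has no check on these arrays.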

How the data were processed

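The authors hybridized biotin-labelled cRNA to DrosGenome1 arrays and computed 1 signal per probe set and array in Microarray Suite (MAS5, named in the labels without a version). Each deposited value is the linear intensity of a probe set, and all arrays share a trimmed mean of 100.02 (2% trimmed). Groups and replicate numbers were taken from the sample titles.

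After 44 control probe sets of 14010 had been left out, the log2 of each signal was taken with nothing added. Probe sets that reached the 40th percentile on at least 2 of 4 arrays were compared with limma 3.58.1 in R 4.3.3 (lmFit, eBayes with a trend, residual degrees of freedom 2, prior 4.95), with Benjamini-Hochberg adjustment over all of them. The fit was also run on simulated data with independent probe sets, normal errors and no batch, so that run does not test those assumptions. Summaries and plots used Python 3.11.15 with pandas 2.3.3 and matplotlib 3.10.9.

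Only the 12442 of 13966 probe sets that carry 1 gene name were used to match genes. All lists were matched by name and also by current symbol or synonym in the RefSeq annotation (Release 6 plus ISO1 MT). Tusp stands in the wider list by mistake and was too dim to be tested. The genes, lists and alternatives were chosen with earlier results of these data known. All 25 genes are named, with full values for the 14 at unadjusted p under 0.05 or with the largest or smallest change of their role group, and from the wider list those at unadjusted p under 0.05 and the 4 next largest changes. Other list genes were named after their values were seen. The filter of the study on detection calls was not repeated, nor was its rule that a gene differ in both experiments. Alternatives were other filters, a floor, 32 added to each signal, quantile normalization, median centring, no trend, replicate number as a block, the mean over a gene's probe sets, the methods' t-test and leaving out each array.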

Additional observations from a re-analysis of the deposited data

How the results depend on the processing

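The median log2 fold change of the 25 genes stayed negative in all alternatives, between -0.38 and -0.16 with 1 array left out. Several alternatives could not change it. No filter, no trend, replicate number as a block, the methods' t-test and the mean over probe sets left each gene's difference as it was (median -0.24). The fall of eca, the 1 call among them, was lost without the filter, in the fit without a trend and with the methods' t-test, where 0 of the 25 genes was called lower each time, and from 0 to 2 were with 1 array left out. The methods' t-test was run here with pooled variance on the log2 signals of the 4 arrays. The study's rule that a gene differ in both experiments was not applied, so the counts are not those of the study. At unadjusted p under 0.05 the t-test gave 6 lower and 1 higher of 25, and 323 lower and 467 higher of all probe sets. After adjustment it gave 0 lower and 0 higher. Over all probe sets, 9 were lower and 121 higher, against 3 and 75 without the filter. With 1 array left out the count ran from 0 to 295 for lower and from 27 to 357 for higher. With replicate number as a block (the replicate block), eca passed (adjusted p = 0.0469) and 10 probe sets were lower and 131 higher. Nothing in the labels or methods says that a number marks a shared batch, and the deviations of same-numbered arrays from their group means correlated at 0.151 over 8749 probe sets. The block changed no call of the 25 genes, and Pcp of the stage markers lost its call (adjusted p = 0.0508). In 0 alternatives was a gene of the wider list called, or a gene of the 25 called higher. The 2 arrays in a group limit what can be detected.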

Other observations

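Genes with more than 1 probe set show how far a single probe set carries. For sau, the fly GOLPH3, which binds Golgi membranes, the brighter probe set had a log2 fold change of -0.34 and the other 0.02, and for SrpRalpha, of the signal recognition particle receptor, the values were -0.04 and 0.40. Sec16 gave -1.39 and 0.46, the latter from signals under the filter. For Hsc70-3 they were 0.02 and -0.36, the latter from signals of 1.70 to 17.5 that were under the filter on all 4 arrays. The probe sets of eca (-1.32 and -0.63) and of Slh, the fly Sly1 (-0.47 and -0.34), had the same sign, and the second of each was too dim to be tested.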
